A study of Mus musculus with 76 samples.

Results

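RNA of single mouse oocytes was compared between Ezhip maternal knockout (matKO, n = 4) and wild-type (WT, n = 3) females across all measured genes. Members were chosen by their labels: the 7 oocyte libraries of 76 in the series, which also covers 2-cell embryos, blastocysts and extraembryonic ectoderm. All 7 oocytes are labelled female, and each library holds the polyadenylated RNA of 1 oocyte. The labels do not name the allele, the breeding scheme, the strain, the age of the females, the donors or the stage of the oocytes. P-values accordingly reflect the scatter among individual oocyte libraries, part of which may be technical.

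EZHIP is an inhibitor of Polycomb repressive complex 2 (PRC2), the enzyme that places the repressive histone mark H3K27me3. It is made in germ cells, where it limits how much of this mark PRC2 deposits. H3K27me3 set in the growing oocyte can pass to the embryo and silence the maternal copy of a small set of genes, which is called noncanonical imprinting. The oocyte comparison therefore addresses which maternal transcripts differ before fertilization.

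Ezhip, listed under its older symbol AU022751, lies on the minus strand of chromosome X, from 6081219 to 6083419 in mm10, and is annotated in 3 exon intervals. Its counts were 12381, 16808 and 17078 in the WT oocytes and 4, 1, 5 and 3 in the matKO oocytes. After scaling to library size by TMM, its levels were 932, 1508 and 1399.7 CPM (counts relative to the scaled library total, the unit of every level given here) in WT and 0.259, 0.188, 0.569 and 0.116 CPM in matKO. The groups were separated by more than 3 orders of magnitude for every pair of libraries, so the level of this gene matched each label. Ranked per length among 48321 genes, Ezhip was number 105, 68 and 75 in the WT oocytes and between 15477 and 17612 in the matKO oocytes.

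WT libraries held 11.5 to 13.1 megacounts (M) and matKO libraries 5.27 to 26.5 M. Pearson's correlation of log2 CPM over genes had a median of 0.913 for pairs of unlike genotype, 0.911 within WT and 0.917 within matKO. The first principal component held 27.1% of the variance and placed matKO oocyte 4, the deepest library, at one end and WT oocytes 2 and 3 at the other, with the other 4 oocytes between them. Oocyte markers were abundant in every library: Zp3, a zona pellucida protein, stood at 4570.4 to 6547 CPM in WT and 1919 to 5143 CPM in matKO. The WT libraries carry the numbers 17 to 19 and the matKO libraries 21 to 24, so library order and genotype cannot be told apart.

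Of 14838 genes tested with edgeR's quasi-likelihood test, 3 passed an adjusted p of 0.05, which is 0.0202% of genes, and all 3 were lower in matKO. They were Ezhip, Cyp11a1 and Aldh1a1. No gene was called higher (0%) by edgeR, by its estimateDisp fit or by limma voom. At an unadjusted edgeR p under 0.05, 620 genes were higher and 594 lower, together 1214 of the 14838. The list counts at that threshold given below are to be read beside this share. DESeq2 called 36 genes (0.243%), with 21 higher and 15 lower, and these included the 3 edgeR calls. After the 3 called genes the smallest edgeR adjusted p was 0.40.

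In 595 genes every matKO oocyte was above every WT oocyte (4.01% of genes tested), and in 587 genes every matKO oocyte was below (3.96%). Separated genes with a fitted fold of at least 4 numbered 74 higher and 56 lower. The median log2 fold change, matKO over WT, was 0.01. The median standard error (SE) of a log2 fold change was 0.31 over the 10835 genes with at least 5 CPM, which sets the size of difference that 3 against 4 oocytes can resolve.

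**Figure D1:**
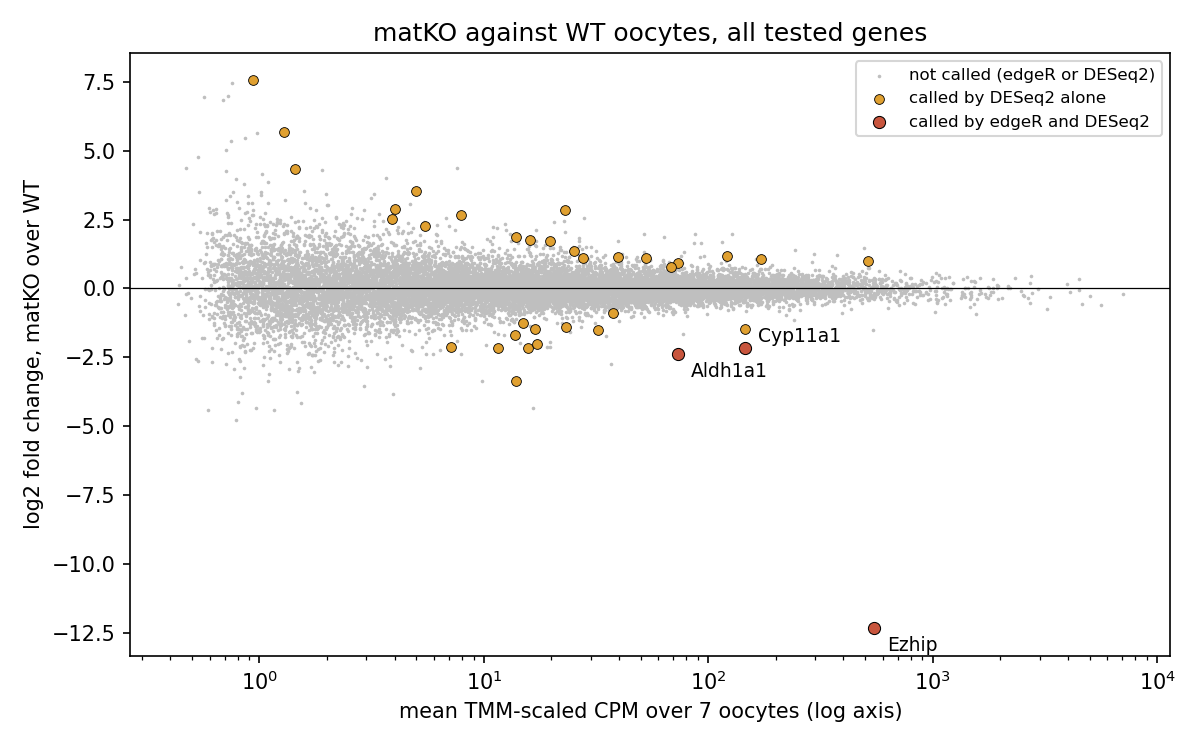
Each dot is 1 of the 14838 tested genes; the x axis is the mean TMM-scaled CPM over the 7 oocytes (log axis) and the y axis the log2 fold change, matKO over WT. Ezhip lies at -12.35, Cyp11a1 at -2.18 and Aldh1a1 at -2.38 (red), and the other DESeq2 calls (orange) lie on both sides of 0.

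Cyp11a1 and Aldh1a1 fell in matKO oocytes by 4.52-fold and 5.22-fold. Cyp11a1 is the mitochondrial side-chain cleavage enzyme that makes pregnenolone, the first step of steroid synthesis. It stood at 239, 213 and 336 CPM in WT and at 47.4, 71.3, 56.6 and 59.3 CPM in matKO. The matKO oocytes lay close together, and the highest of them was far below the lowest WT oocyte. The log2 fold change was -2.18 (SE 0.22, edgeR adjusted p 0.0059). Gm17322 shares exon positions with Cyp11a1 on the same strand and had 389 counts over the 7 oocytes, against 12777 for Cyp11a1.

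Aldh1a1 is a cytosolic dehydrogenase that oxidizes retinaldehyde to retinoic acid. It stood at 165, 153 and 90.2 CPM in WT and at 24.5, 30.2, 26.8 and 24.4 CPM in matKO. WT oocyte 3 was the lowest of the WT oocytes and still about 3 times the highest matKO oocyte. The log2 fold change was -2.38 (SE 0.25, edgeR adjusted p 0.0059).

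Without matKO oocyte 1 neither gene passed (edgeR adjusted p 0.053 for Cyp11a1 and 0.054 for Aldh1a1), and without WT oocyte 2 Aldh1a1 did not (0.068). Over 16 alternatives the adjusted p ran from 2.0e-14 to 0.091 for Cyp11a1 and from 1.5e-14 to 0.091 for Aldh1a1, with log2 fold changes between -2.30 and -1.96 and between -2.60 and -2.22.

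**Figure D2:**
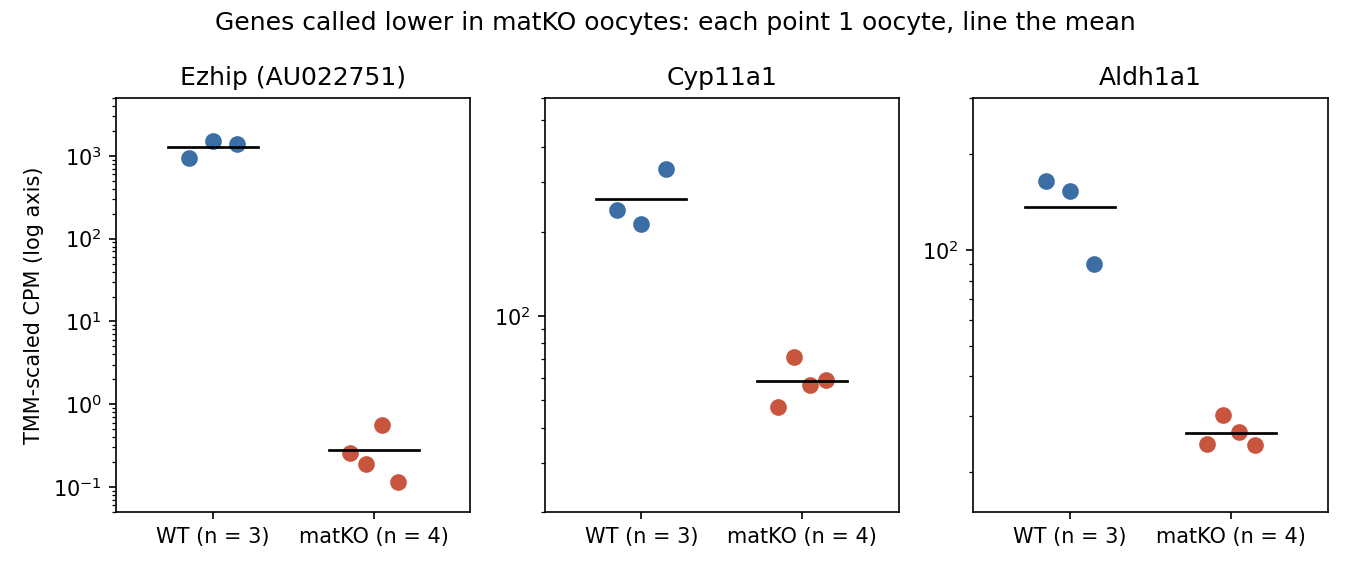
TMM-scaled CPM (log axes with separate ranges) of Ezhip, Cyp11a1 and Aldh1a1 in 3 WT (blue) and 4 matKO (red) oocytes; each point is 1 oocyte and the line is the group mean. The groups do not overlap in any panel, from a mean of 1280.1 to 0.283 CPM for Ezhip, 262 to 58.7 CPM for Cyp11a1 and 136 to 26.5 CPM for Aldh1a1.

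Cyp11a1 lies on the plus strand of chromosome 9, from 58006411 to 58027023, and Aldh1a1 on the plus strand of chromosome 19, from 20601961 to 20643462 (mm10). Each gene has 2 RefSeq starts (GRCm38.p6), and the start nearest to an annotated exon start was used. For Cyp11a1 this start, 58014952, lies well inside the stated interval. The window of the other start was not searched. The 250 bases before the start used are shown, as a proximal promoter window of each called gene besides Ezhip. They were searched on both strands for AGGTCA, the half-site bound by nuclear receptors such as the steroidogenic factor NR5A1, and for CCAAT, bound by NF-Y; capitals mark the matches.
Cyp11a1, chr9:58014702-58014951, plus strand: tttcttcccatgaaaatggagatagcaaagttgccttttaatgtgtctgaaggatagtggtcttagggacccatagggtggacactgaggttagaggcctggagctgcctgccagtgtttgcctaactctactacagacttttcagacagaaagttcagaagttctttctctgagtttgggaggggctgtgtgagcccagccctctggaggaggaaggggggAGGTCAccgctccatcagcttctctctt
Aldh1a1, chr19:20601718-20601967, plus strand: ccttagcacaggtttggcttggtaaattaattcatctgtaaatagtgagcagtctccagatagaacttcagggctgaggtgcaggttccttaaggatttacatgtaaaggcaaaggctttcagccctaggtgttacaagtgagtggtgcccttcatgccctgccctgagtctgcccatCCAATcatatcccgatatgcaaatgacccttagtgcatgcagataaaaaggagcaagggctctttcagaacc
The Cyp11a1 window held 1 AGGTCA, on the plus strand at -28 to -23 from the start, and no CCAAT. The Aldh1a1 window held 1 CCAAT, on the plus strand at -72 to -68, and no AGGTCA. Of 32851 mouse promoter windows of the same length, 14.0% held AGGTCA and 33.8% held CCAAT, so both matches are common.

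The rest of the steroid pathway was not called. Of 16 tested genes for steroid synthesis and its redox partners, Cyp11a1 alone passed by edgeR and by DESeq2; 5 had an unadjusted p under 0.05, and the list's median log2 fold change was -0.53. Hsd3b1, which turns pregnenolone into progesterone, stood at 581, 543 and 1471.5 CPM in WT and at 250.1, 279.9, 566 and 114 CPM in matKO. Only matKO oocyte 3 reached the WT range for Hsd3b1, and its log2 fold change was -1.52 (SE 0.48, edgeR adjusted p 0.52).

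Star, which carries cholesterol into mitochondria, overlapped between WT at 32.03 CPM ± 29.02 (SD, n = 3) and matKO at 15.2 CPM ± 8.73 (SD, n = 4). Cyp19a1, the aromatase that makes estrogens, was at 49.5 CPM ± 18.9 (SD, n = 3) in WT oocytes and 69.3 CPM ± 9.14 (SD, n = 4) in matKO oocytes, with a difference of 0.48 on the log2 scale (SE 0.27). Lhcgr, the receptor for luteinizing hormone, was at 27.1, 19.4 and 165 CPM in WT and at 13.8, 18.2, 12.96 and 2.95 CPM in matKO. The groups were separated for Lhcgr, but by little beyond WT oocyte 3, and its log2 fold change of -2.74 (SE 0.77) had an edgeR adjusted p of 0.50.

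Of 13 tested genes for retinoid synthesis and handling, Aldh1a1 alone was called, and the list's median log2 fold change was 0.16. All matKO oocytes were below all WT oocytes in 3 of the 13 (23.1%, against 3.96% of all genes) and above in 1 (7.69%, against 4.01%). The lower genes included Rdh10, which makes retinaldehyde. Rdh10 was at 280.1, 302 and 314 CPM in WT and 232, 213, 175 and 146 CPM in matKO, with a log2 fold change of -0.65 (SE 0.19). Aldh1a2, the retinaldehyde dehydrogenase of the early embryo, overlapped between WT at 65.5 CPM ± 28.2 (SD, n = 3) and matKO at 55.1 CPM ± 11.7 (SD, n = 4). The gene above in all matKO oocytes was the receptor Rara, at 0.987 to 3.24 CPM in WT and 3.30 to 11.6 CPM in matKO.

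Several of these genes are made by the somatic cells of the follicle, so marker lists of such cells were read in the same libraries. Of 26 granulosa and cumulus markers 18 were tested, and 1 was called, Cyp11a1 itself. At an unadjusted p under 0.05, 4 were lower and 1 was higher. All matKO oocytes were below all WT oocytes in Cyp11a1, Lhcgr and Kitl, 3 of the 18 (16.7%, against 3.96% of all genes). None was above, and 11 of 18 log2 fold changes were positive, with a median of 0.47. This median ran from -0.18 to 0.94 over 9 alternatives. The summed level of the list without Cyp11a1 was 1046 to 2503 CPM in WT oocytes and 732 to 3531 CPM in matKO oocytes. matKO oocyte 3 had the highest sum of all 7 oocytes and Cyp11a1 at 56.6 CPM, near the other matKO oocytes. Inha, the inhibin subunit made by granulosa cells, reached 1854 CPM in that oocyte and 310.5 CPM at most in WT. Tnfaip6 and Areg, which cumulus cells make at ovulation, were at 0 in all 7 oocytes, and Foxl2 was at 0 in the WT oocytes. In these libraries fewer adhering cells, less RNA per such cell and a lower level in the oocyte itself cannot be told apart.

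Of 26 markers of theca, stroma and decidua 19 were tested. None was called by edgeR, estimateDisp or limma voom. DESeq2 called 4 lower, against 15 lower calls among all 14838 genes tested. At an unadjusted edgeR p under 0.05, 9 were lower and 0 higher, against 594 lower and 620 higher among all genes. In 8 of the 19 (42.1%, against 3.96% of all genes) every matKO oocyte was below every WT oocyte, and none was above. Log2 fold changes were negative in 18 of 19, with a median of -1.38, against 0.01 over all genes. The summed level of the list was 391, 477 and 446 CPM in WT and 296, 199, 208 and 209 CPM in matKO, so the groups did not overlap. The lower level of decidual and stromal markers was known from these data when the list was made, and the list is not independent evidence of its direction. The part of such cells in the other lower genes was not tested.

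The separated stromal genes were the collagens Col1a1, Col1a2 and Col3a1, the matrix proteins Sparc, Dcn and Lum, the intermediate filament Vim and the signal Wnt4. Col1a1, a chain of type I collagen, was at 5.35, 12.4 and 12.5 CPM in WT and at 2.91, 2.06, 0.682 and 0.388 CPM in matKO. Col3a1, which forms type III collagen, was at 26.7, 39.6 and 26.1 CPM in WT and at 14.1, 4.13, 5.004 and 5.04 CPM in matKO. In both collagens matKO oocyte 1 was the highest matKO oocyte. Vim was at 18.9, 26.8 and 20.7 CPM in WT and at 7.18, 10.1, 7.96 and 4.69 CPM in matKO, without a matKO oocyte that stood apart. Esr1, an estrogen receptor, overlapped between WT at 107 CPM ± 26 (SD, n = 3) and matKO at 86.9 CPM ± 22.5 (SD, n = 4).

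**Figure D3:**
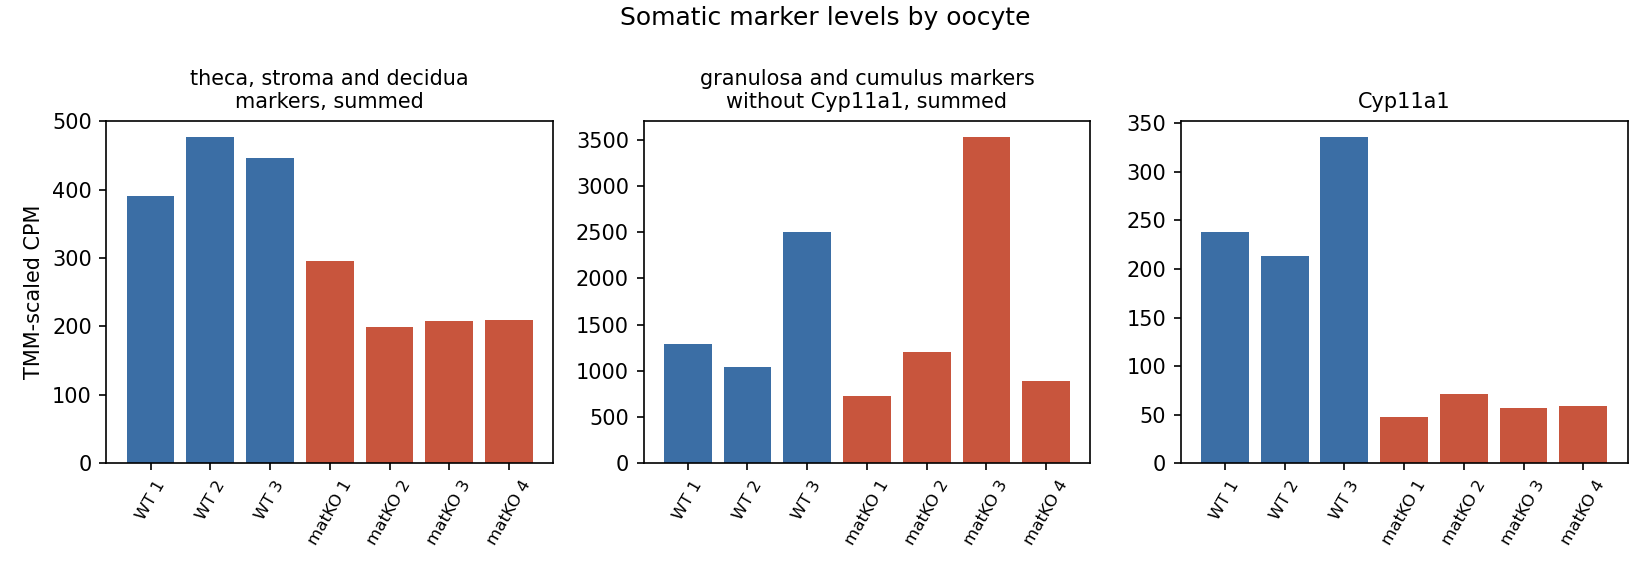
Bars give TMM-scaled CPM in each of 3 WT (blue) and 4 matKO (red) oocytes: the sum of theca, stroma and decidua markers (left), the sum of granulosa and cumulus markers without Cyp11a1 (middle) and Cyp11a1 (right). The left and right panels separate the genotypes, while in the middle panel matKO oocyte 3 is the highest at 3531 CPM and matKO oocyte 1 the lowest at 732 CPM.

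Markers of other cells gave overlapping sums. The macrophage and leukocyte list (10 of 12 tested, 0 called by edgeR or DESeq2, 1 at an unadjusted p under 0.05) summed to 115 to 179 CPM in WT and 50.0 to 166 CPM in matKO. C1qb, a complement subunit, made up much of this sum, with WT oocytes at 75.1 CPM ± 23.04 (SD, n = 3) against 73.9 CPM ± 50.7 (SD, n = 4) among matKO oocytes. The log2 fold changes of the list were negative in 7 of 10, with a median of -0.74, and 1 was separated downward (10%, against 3.96% of all genes). The endothelial list (5 of 6 tested, 0 called by edgeR or DESeq2, 0 at an unadjusted p under 0.05) summed to 22.5 to 53.2 CPM in WT and 24 to 61.1 CPM in matKO. The oviduct list (8 of 10 tested, 0 called by edgeR or DESeq2, 1 at an unadjusted p under 0.05) summed to 569 to 685 CPM and 539 to 725 CPM. Most of this sum was Ehf, with means of 400 CPM in WT and 470 CPM in matKO. Much of the rest was Cdh1, with means of 145 and 143 CPM, so the sum says little about the other members. The member with a p under 0.05 was the secretory marker Ovgp1. Ovgp1 was at 107 CPM in WT oocyte 3 and between 0.227 and 2.96 CPM in the other 6 oocytes. No erythroid marker passed the filter, and their sum stayed at or below 5.06 CPM.

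Outside the marker lists, the lower genes of smallest p included S100a6, Clu, Serpina5, Tmem86a and Sod3, none of them called by edgeR and all 5 called by DESeq2. Clu, a secreted chaperone, was at 227, 229 and 232 CPM in WT and at 68.5, 73.2, 139 and 56.4 CPM in matKO. Its WT oocytes lay within 3 CPM of their mean, and matKO oocyte 3 was the highest matKO oocyte. The log2 fold change was -1.46 (SE 0.28, edgeR adjusted p 0.50). Without matKO oocyte 3 Clu passed, at -1.81 (SE 0.20, edgeR adjusted p 0.024).

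S100a6, a small calcium-binding protein, was at 13.1, 27.7 and 43.4 CPM in WT and at 4.27, 4.31, 3.87 and 0.582 CPM in matKO. Serpina5, a secreted protease inhibitor, was at 25.7, 34.9 and 23.85 CPM in WT and at 2.33, 8.44, 5.004 and 9.31 CPM in matKO. In both genes every matKO oocyte was below every WT oocyte, and WT oocytes differed among themselves more for S100a6 than for Serpina5. Sod3, the extracellular superoxide dismutase, was at 12.4, 17.7 and 7.70 CPM in WT and between 2.05 and 4.50 CPM in matKO. Tmem86a, which breaks down lysoplasmalogen, was at 38.9, 37.6 and 32.4 CPM in WT and between 9.25 and 18.9 CPM in matKO.

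The 10 higher genes of smallest p included Snd1, Atxn2l, Rfpl4, Npas2, Lrrc49, Tmed9, Cbfa2t3 and Pced1b. None was called by edgeR (adjusted p 0.40 to 0.50), and all 10 were called by DESeq2. Atxn2l and Snd1 encode RNA-binding proteins. Snd1, a nuclease with Tudor and staphylococcal nuclease domains, was at 8.51, 6.01 and 5.74 CPM in WT and at 25.7, 22.5, 21.7 and 22 CPM in matKO. Atxn2l, a stress granule protein, was at 81.1, 65.8 and 62.3 CPM in WT and at 168, 192, 154 and 121 CPM in matKO. In both genes the lowest matKO oocyte was above the highest WT oocyte.

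Rfpl4, an oocyte RING finger protein, stood at 379, 363 and 252 CPM in WT and at 626, 631, 613 and 754 CPM in matKO, a log2 fold change of 0.99 (SE 0.19). The matKO oocytes lay close to each other and about 2-fold above WT. Npas2, a circadian transcription factor, was at 5.35, 6.46 and 5.41 CPM in WT and at 21.9, 14.8, 14.9 and 28.3 CPM in matKO. It was low in WT and separated in all 4 matKO oocytes.

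Among the other DESeq2 calls, Adgrf1, an adhesion G-protein-coupled receptor, had 0 counts in the 3 WT oocytes and 101 counts over the 4 matKO oocytes. Set against 3 counts over the WT group, the level that 0 counts allow, its pooled level was at least 22.3-fold higher in matKO. This bound leaves out the spread among oocytes. The matKO levels were 1.36, 1.88, 0.910 and 2.41 CPM, so the gene was present at low level in each. Hyou1, a chaperone of the endoplasmic reticulum, was at 0.269 to 1.23 CPM in WT and 2.72 to 10.7 CPM in matKO, and Tmed9, a cargo receptor of the early secretory pathway, at 4.51 to 13.7 CPM and 20.6 to 36.8 CPM. Fam13c shares exon positions with Phyhipl on the opposite strand, and how reads were assigned to strands is not given, so its levels of 13.6 CPM ± 2.55 (SD, n = 3) in WT oocytes against 33.9 CPM ± 11.04 (SD, n = 4) in matKO oocytes are uncertain.

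**Figure D4:**
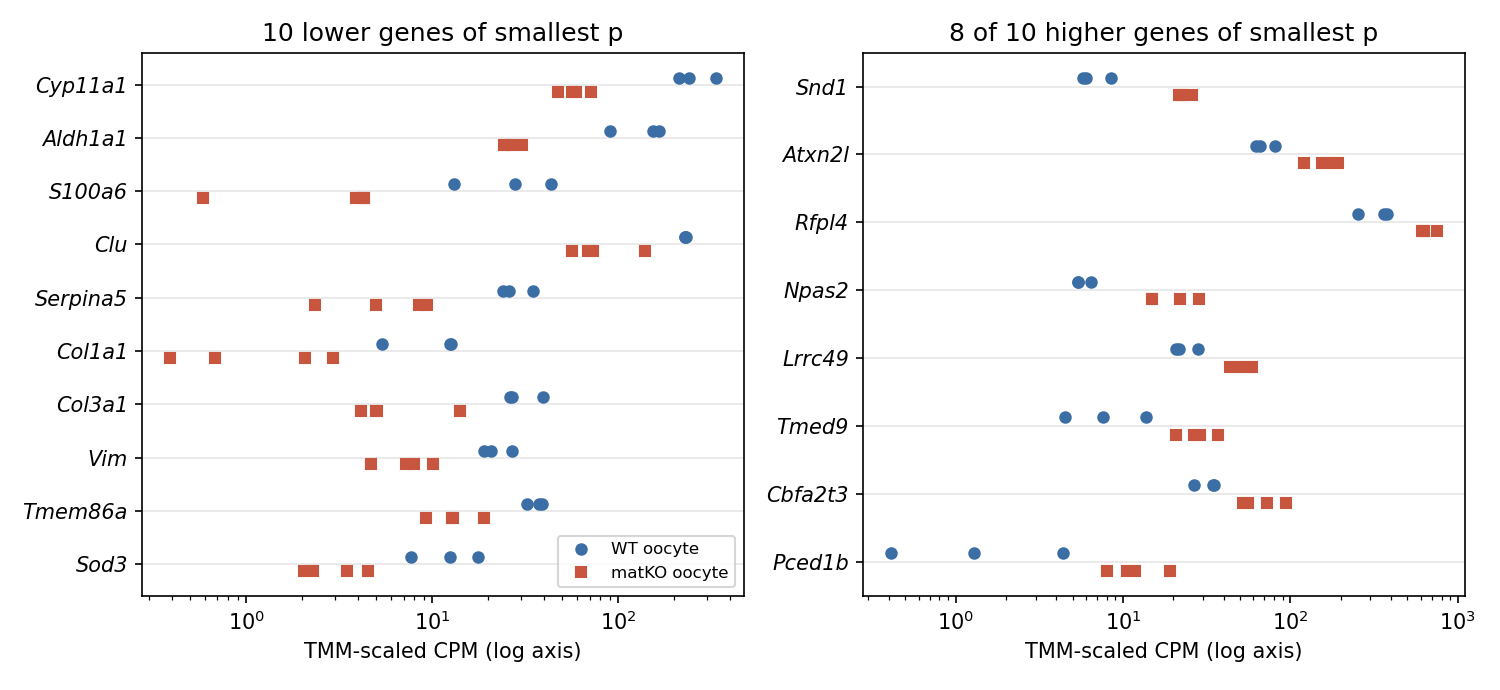
TMM-scaled CPM (log axis) of the 10 lower (left) and 8 of the 10 higher (right) named genes of smallest unadjusted p besides Ezhip; circles are 3 WT and squares 4 matKO oocytes. The genes were chosen as not overlapping; Cyp11a1 and Aldh1a1 alone were called by edgeR.

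PRC2, the complex that EZHIP inhibits, was read next. None of the 6 core PRC2 genes was called by edgeR or DESeq2, and none had an unadjusted p under 0.05. Ezh2, the main methyltransferase, was at 472, 615 and 671 CPM in WT and at 667, 543, 648 and 454 CPM in matKO, a log2 fold change of -0.02 (SE 0.20). Eed, which reads H3K27me3, was at 204, 462 and 441 CPM in WT and at 389.9, 371, 432 and 201 CPM in matKO. In both genes the lowest matKO oocyte was number 4, and the ranges overlapped. Suz12, the scaffold subunit, had a log2 fold change of -0.005 (SE 0.27) and Ezh1, the second methyltransferase, of -0.10 (SE 0.18).

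Rbbp7, a histone-binding subunit, was separated upward at 1324 to 1453 CPM in WT and 1561 to 1784 CPM in matKO, with a log2 fold change of 0.23 (SE 0.15, edgeR adjusted p 0.72). Txlng overlaps Rbbp7 on the opposite strand. Among 7 tested accessory PRC2 subunits and 20 tested PRC1 genes, none was called by edgeR or DESeq2; 0 and 1 had an unadjusted p under 0.05. The PRC1 gene was Rnf2, the ubiquitin ligase for histone H2A. It was at 199, 211 and 217 CPM in WT and at 154, 151, 147 and 116 CPM in matKO, a log2 fold change of -0.56 (SE 0.17, edgeR adjusted p 0.52). Rnf2 overlaps Trmt1l on the opposite strand.

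Among 25 tested genes for histone lysine methylation outside PRC2, none was called by edgeR or DESeq2 and 3 had an unadjusted p under 0.05. In 3 of the 25 (12%, against 4.01% of all genes) every matKO oocyte was above every WT oocyte. They were Kmt2d, Whsc1l1 and Kdm1a. In 1 (4%, against 3.96%), Kdm1b, every matKO oocyte was below. Kdm1b, the H3K4 demethylase needed for DNA methylation imprints in oocytes, had the smallest p. It was at 429, 248 and 379 CPM in WT and at 189.8, 157, 87.9 and 203 CPM in matKO. The groups were separated, and the log2 fold change was -1.14 (SE 0.28, edgeR adjusted p 0.50). Of 11 tested genes for DNA methylation, none was called by edgeR or DESeq2, and 2 had an unadjusted p under 0.05. Tet1, which oxidizes methylcytosine, was at 4.67 to 5.65 CPM in WT and 7.16 to 11.9 CPM in matKO.

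Clustered histone genes summed to 349 to 484 CPM in WT and 244 to 307 CPM in matKO, without overlap. Of 70 such genes 16 were tested, none was called by edgeR or DESeq2, 2 had an unadjusted p under 0.05, and 3 were separated, all lower (18.75%, against 3.96% of all genes). The sum was mostly Hist1h2bc, at 224, 348 and 252 CPM in WT and 138, 195, 139.5 and 150.4 CPM in matKO. Hist1h2bg was at 34.5 to 38.4 CPM in WT and 16.6 to 24.4 CPM in matKO. These genes have near-identical copies and largely lack poly(A) tails, so their counts are uncertain.

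Of 8 core noncanonical imprinted genes 4 were tested, and none was called by edgeR or DESeq2; Smoc1 had an unadjusted p under 0.05. Gab1, a signalling adaptor, was at 7.83, 16.96 and 8.52 CPM in WT and at 5.82, 7.88, 18.1 and 7.10 CPM in matKO. Jade1, a chromatin reader, was at 3.03 to 4.29 CPM and 1.16 to 7.73 CPM. Smoc1, a secreted matrix protein, was at 10.8, 3.41 and 18.6 CPM in WT and 3.24, 4.13, 4.21 and 0.427 CPM in matKO. The groups overlapped in all 4, and Xist, the RNA that coats the inactive X, stayed at or below 4.14 CPM. Sfmbt2 and Slc38a4 did not pass the filter and had group means of at most 0.844 CPM.

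Of 22 tested canonical imprinted genes, none was called by edgeR or DESeq2; 3 had an unadjusted p under 0.05. In this list 1 gene was separated upward and 1 downward (4.55% each), near the 4.01% and 3.96% of all genes. Cdkn1c, a cell cycle inhibitor, was at 5.66 to 8.35 CPM in WT and 11.4 to 13.3 CPM in matKO, and Grb10, a growth inhibitor, at 32.4 to 44.3 CPM and 18.9 to 30.8 CPM. Of 50 developmental regulators known as PRC2 targets 19 were tested, none was called by edgeR or DESeq2, 4 had an unadjusted p under 0.05, and 2 were separated, both upward (10.5%, against 4.01% of all genes). Gata4, a gonadal and endodermal transcription factor, was at 24.3, 17.3 and 35.1 CPM in WT and at 48.7, 49.7, 57.2 and 67.7 CPM in matKO. Its log2 fold change was 1.13 (SE 0.28, edgeR adjusted p 0.50), and the related Gata3 was at 6.37 to 11.4 CPM and 12.01 to 14.8 CPM.

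**Figure D5:**
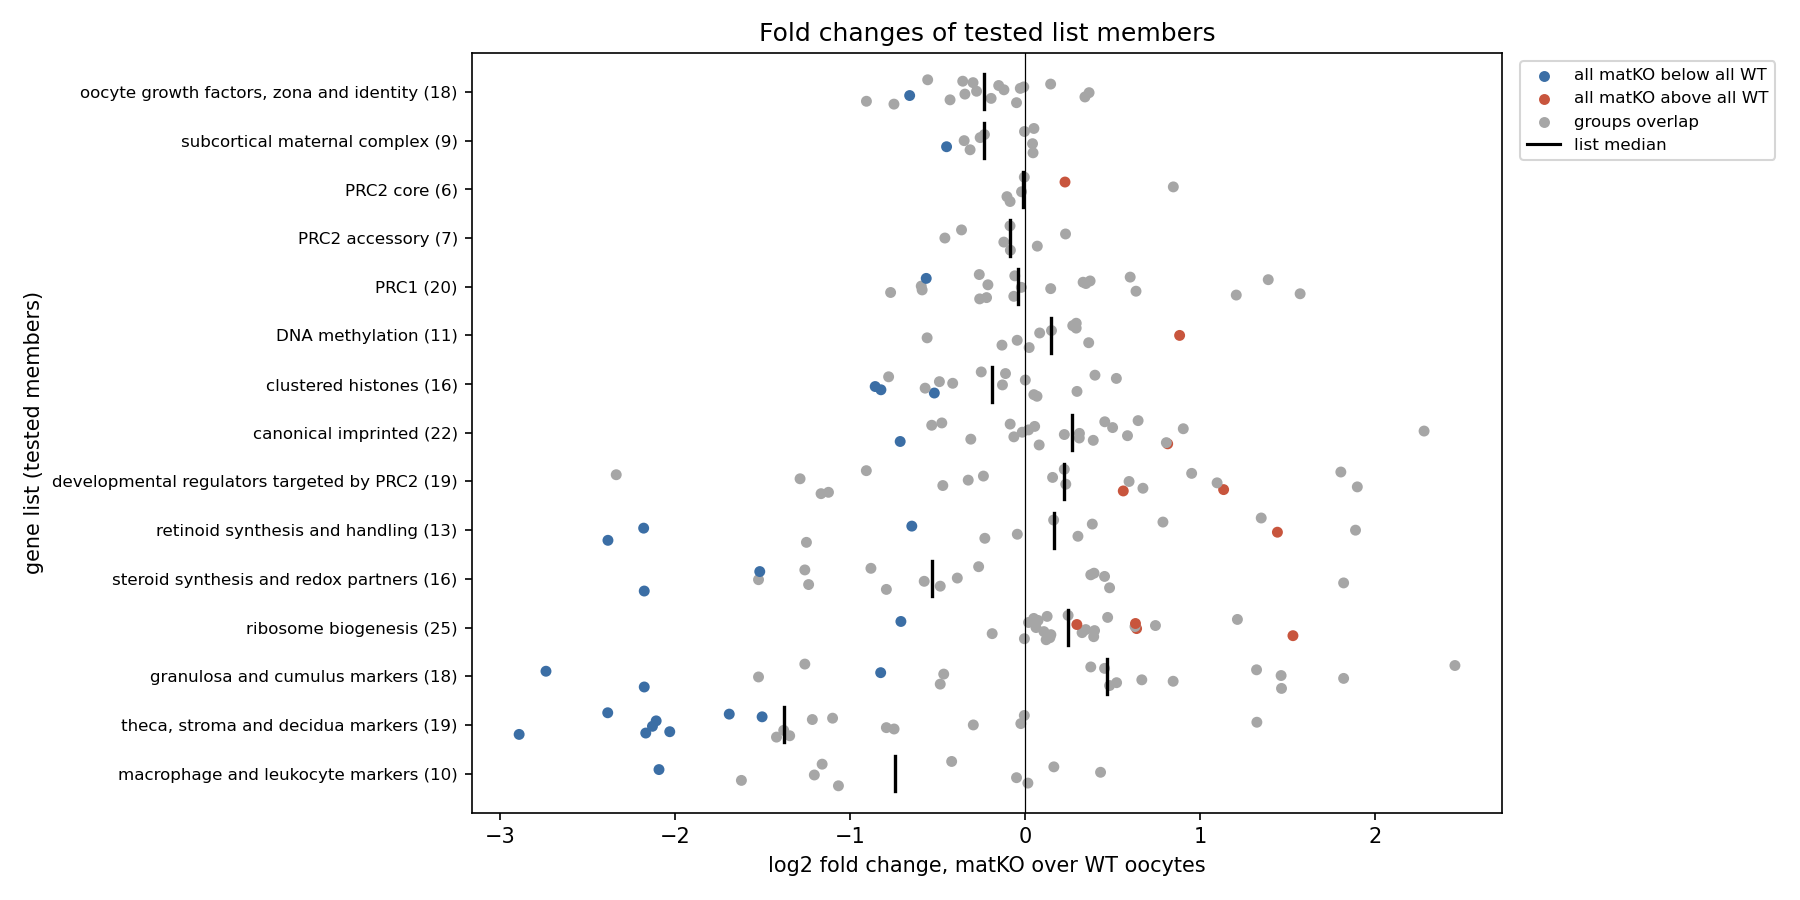
Each dot is 1 tested gene of the list on the y axis (tested members in parentheses) and the x axis is its log2 fold change, matKO over WT; black bars are list medians, and colour marks whether the 4 matKO and 3 WT oocytes overlap. The median lies at -0.01 for the PRC2 core and at -1.38 for theca, stroma and decidua markers. It lies at -0.74 for macrophage and leukocyte markers, -0.53 for steroid synthesis and 0.47 for granulosa and cumulus markers. Over 9 alternatives these medians ran from -1.30 to -0.0064, from -0.78 to -0.27 and from -0.18 to 0.94, so the granulosa median did not keep its sign.

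Genes of oocyte identity overlapped between the groups, apart from Kit. Of 18 tested growth factor, zona and identity genes, none was called by edgeR or DESeq2; 3 had an unadjusted p under 0.05, 15 log2 fold changes were negative and the median was -0.24. Gdf9, an oocyte growth factor, was at 8287, 6742 and 7784 CPM in WT and at 7097.5, 6425.5, 2635 and 10420 CPM in matKO. matKO oocyte 3 was the lowest and matKO oocyte 4 the highest of all 7 for Gdf9. Kit, the receptor for Kit ligand, was at 285, 251 and 284 CPM in WT and 211, 181, 122 and 178 CPM in matKO. Its ligand Kitl, a granulosa product, was at 14.0 to 15.3 CPM in WT and 7.18 to 11.1 CPM in matKO. Neither was called (edgeR adjusted p 0.52 and 0.58).

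Of 25 tested ribosome biogenesis genes, 22 had positive log2 fold changes, with a median of 0.25; none was called by edgeR or DESeq2, and 4 had an unadjusted p under 0.05. In 4 of the 25 (16%, against 4.01% of all genes) every matKO oocyte was above every WT oocyte, and in 1 (4%, against 3.96%) every matKO oocyte was below. Pes1, which acts in maturation of the large subunit, was at 54.4, 51.8 and 56.3 CPM in WT and at 77.5, 83.9, 81.1 and 92.6 CPM in matKO. Gar1, of the box H/ACA particles that modify ribosomal RNA, was at 7.83, 13.9 and 2.79 CPM in WT and at 28.9, 24.01, 27.6 and 14.7 CPM in matKO. The highest WT oocyte was close below the lowest matKO oocyte for Gar1. Cytosolic ribosomal protein genes, 85 tested, had a median of 0.18, mitochondrial ones (76) of 0.08, and nuclear genes of oxidative phosphorylation (90) of -0.001. None in these 3 lists was called by edgeR or DESeq2, and 8, 4 and 7 had an unadjusted p under 0.05.

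The same contrast was then read in separate libraries, 11 WT and 12 matKO 2-cell embryos, for the 90 genes named from the oocytes. All WT embryos carry lower library numbers than all matKO embryos, as in the oocytes. Library order and genotype therefore cannot be told apart at this stage either. Of these, 85 were tested and 7 were called with sex as a term, beside 3.13% of all 14506 genes tested at that stage; 6 of the 7 had the sign seen in oocytes. Of all 85, 44 had the same sign (51.8%), near the 50.4% of the 12425 genes tested at both stages. Of the 359 called 2-cell genes among those 12425, 211 had the same sign. Ezhip was at 38.6 to 337 CPM in WT embryos (median 120.3) and 0 to 18.9 CPM in matKO embryos (median 1.02).

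Cyp11a1 had counts in 9 of 11 WT embryos, with a median of 93.8 CPM and a highest value of 346 CPM, and 0 counts in all 12 matKO embryos. Against 3 counts over the matKO group its pooled level was at least 1142-fold lower. This bound leaves out the spread among embryos, and some WT embryos were themselves at 0. The edgeR adjusted p of Cyp11a1 was 0.0081. Aldh1a1 had counts in 8 of 11 WT embryos (median 31.7 CPM) and in 4 of 12 matKO embryos (highest 4.56 CPM), a log2 fold change of -6.14 (SE 1.00, edgeR adjusted p 0.00077). Both genes called in oocytes besides Ezhip were thus lower again, and in both the groups overlapped, since some WT embryos were at 0.

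Clu had a log2 fold change of -4.51 in 2-cell embryos (SE 0.75, edgeR adjusted p 0.00077), with a median of 16.1 CPM in WT and 0.586 CPM in matKO. Lhcgr was at 0 to 52.0 CPM in WT and 0 to 0.238 CPM in matKO, a log2 fold change of -7.74 (SE 1.79, edgeR adjusted p 0.021). Serpina5 had 289 counts over 6 of 11 WT embryos and 0 in matKO embryos. Its edgeR adjusted p was 0.055, and 0.044 with estimateDisp. Its pooled level was at least 64.5-fold lower, a bound that leaves out the spread among embryos. Clu had counts in 11 of 11 WT and 8 of 12 matKO embryos, and Lhcgr in 7 of 11 and 1 of 12. Clu, Lhcgr and Serpina5 were below the WT mean in 12 of 12 matKO embryos. Any embryo at 0 is below that mean, and for Lhcgr and Serpina5 this includes WT embryos.

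Gab1 fell by 2.04 on the log2 scale in 2-cell embryos (SE 0.46, edgeR adjusted p 0.013, and 0.10 with estimateDisp), from medians of 28.1 to 2.64 CPM, whereas in oocytes its log2 fold change was -0.26 (SE 0.48). Gdf9 rose by 0.75 (SE 0.18, edgeR adjusted p 0.019) against -0.19 (SE 0.35) in oocytes. S100a6 had a log2 fold change of 1.26 (SE 0.52, edgeR adjusted p 0.16) and Snd1 of -0.07 (SE 0.43), opposite in sign to oocytes. The stromal genes Col1a1, Sparc, Vim and Col3a1 were not called in 2-cell embryos. Their log2 fold changes were -0.23 (SE 0.66), -0.20 (SE 0.44), -0.56 (SE 0.64) and -3.11 (SE 0.96). The edgeR adjusted p values were 0.89, 0.85, 0.68 and 0.059, in the same order. Col1a2 did not pass the filter at that stage. Of the 10 higher genes, 7 had the same sign in 2-cell embryos and none was called by edgeR. Of the 10 lower genes 9 were tested, 8 had the same sign, and 3 were called, namely Cyp11a1, Aldh1a1 and Clu. With Cyp11a1 and Aldh1a1 left out of the higher and lower genes, 17 were tested, 13 had the same sign and 1 was called. Among all genes, 50.4% of those tested at both stages had the same sign, and 3.13% were called in 2-cell embryos. The difference between the stages was not tested.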

How the data were processed

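The authors deposited raw gene counts as whole numbers, in a separate table for each stage. Trim Galore, STAR, SAMtools and featureCounts on mm10 are named in the submitters' processing notes, without versions. The labels do not state the strand setting, the handling of multi-mapping reads or the annotation release. Oocytes (3 WT, 4 matKO) and 2-cell embryos (11 WT, 12 matKO, with sex as a term) were fitted separately with edgeR 4.0.16: filterByExpr (minimum count 10), TMM, glmQLFit (robust) and glmQLFTest, Benjamini-Hochberg over all tested genes, threshold 0.05. SE is implied by the F statistic. Alternatives used estimateDisp, DESeq2 1.42.0, limma 3.58.1 voom, other scalings and filters, thinning and omitted libraries. The procedure was tested on simulated counts.

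Members and gene lists were chosen with earlier results of these data known. Named were Ezhip, all edgeR and DESeq2 calls, the 10 genes of smallest p per direction (mean of at least 5 CPM, groups not overlapping, standard symbols), up to 2 separated genes per list, all tested PRC2 core and noncanonical imprinted genes, and 5 oocyte markers. Other genes were named after their values were seen. Some genes that the rule names are not reported here. Promoters are from RefSeq. No pair of oocytes of a group agreed within sampling noise (lowest chi-square per degree of freedom 19.1).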

Additional observations from a re-analysis of the deposited data

Results flagged for a closer look

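In 8 of 90 named genes 1 matKO oocyte stood apart from the other 3 by Dixon's test, which flags about 1 in 20 groups by chance. matKO oocyte 1 was high for the collagens, with Col3a1 at 14.1 CPM (others 4.13 to 5.04) and Col1a2 at 10.1 CPM (2.25 to 3.00), and for Ugt8a at 13.5 CPM (7.73 to 8.63). matKO oocyte 4, the deepest library, was low for S100a6 at 0.582 CPM (3.87 to 4.31) and Ythdf2 at 26.3 CPM (37.5 to 39.1). It was high for Rfpl4 at 754 CPM (613 to 631) and Mrpl2 at 143 CPM (89.8 to 97.6). In matKO oocyte 3 Gab1 stood at 18.1 CPM (5.82 to 7.88). The WT group of 3 was not tested in this way.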

How the results depend on the processing

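The oocyte count of 3 was 36 with DESeq2 and 1 to 4 without single libraries; it was 3 with estimateDisp, voom, RLE, upper quartile, no filter, a minimum count of 30 and thinning to the shallowest library. It was 1 without matKO oocyte 1, 4 without matKO oocyte 3 (with Clu) and 4 without matKO oocyte 4, with Cfd higher at 4.99 (SE 0.65, edgeR adjusted p 0.013), which was at 0 in that oocyte. With a replicate block the count was 1, Ezhip. Same-numbered oocytes of the 2 genotypes correlated at -0.17, 0.07 and 0.12, and unlike-numbered ones from -0.19 to 0.32. These few values cannot decide whether the numbers pair oocytes, and the labels do not say. The 2-cell count of 7 was 16 without a filter, 5 with the block and 7 to 13 without single embryos (13 without WT female 2). Some uncalled log2 fold changes near 0 changed sign. Without single oocytes Ezh2 ran from -0.15 to 0.088, Eed from -0.37 to 0.11, Suz12 from -0.18 to 0.20, Gab1 from -0.69 to 0.17, Gdf9 from -0.50 to 0.070 and Zar1 from -0.66 to 0.36. With the block Ezh2 was at 0.090, Eed at 0.19, Suz12 at 0.23 and Rbbp4 at -0.0012; Suz12 was at 0.00046 with estimateDisp and 0.00069 without a filter. The cause was not tested. The theca, stroma and decidua median ran from -1.69 to -1.31 over 9 alternatives, and the granulosa median from -0.18 to 0.94.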

Other observations

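Of 14 tested genes of the integrated stress response, none was called by edgeR or DESeq2, 3 had an unadjusted p under 0.05, 2 were separated upward (14.3%, against 4.01% of all genes) and 1 downward (7.14%, against 3.96%). Ddit3, a transcription factor induced by this response, was at 86.7, 34.8 and 76.6 CPM in WT and at 148, 136, 110.3 and 102 CPM in matKO, while Trib3, which it induces, was at 0.984 to 2.42 CPM and 0.455 to 0.938 CPM. Ddit3 overlaps Mars on the opposite strand. Proteasome genes (37 tested, none called by edgeR or DESeq2, 1 at an unadjusted p under 0.05) had a median log2 fold change of 0.14, and 3 were separated upward (8.11%, against 4.01% of all genes) and none downward. Psmd4, the ubiquitin receptor of the proteasome, was at 345, 338 and 383 CPM in WT and at 428, 462, 495 and 578 CPM in matKO. Of 18 tested glycolysis genes, 15 had positive log2 fold changes, and the list median was 0.36. None was called by edgeR or DESeq2 (2 at an unadjusted p under 0.05). The summed level overlapped at 6024 to 9670.5 CPM in WT and 3108 to 10081 CPM in matKO. Most of this sum was Ldhb, with means of 6985 CPM in WT and 4654 CPM in matKO. The log2 fold change of Ldhb was -0.59 (SE 0.42), so the sum says little about the 15 positive genes.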
